A study of Rattus norvegicus with 34 samples.

Results

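*Edn2* and *Fgf2* are 2 of the 44 specific genes on a TaqMan microfluidic card, and they were taken by their gene symbols. Retinal RNA of 23 single male rats was measured at 9 weeks of age, with 1 well per gene and rat. The 6 SD rats were uninjected Sprague Dawley rats, and the 6 PKD rats were uninjected rats of the strain PKD2(HA-1/703-CMV-247). PKD rats are homozygous for a transgene in which the CMV promoter drives a truncated human polycystin-2, and they lose photoreceptors and retinal capillaries. This promoter is active in many cell types, so the transgene is not confined to the retina. A further 5 PKD rats had received intravitreal injections of 3 µl of clodronate liposomes at 4 and 8 weeks of age, and 6 PKD rats had received control liposomes on the same schedule. Clodronate liposomes are taken up by phagocytes, on which clodronate is toxic. The 2 injected groups differ from the uninjected PKD rats by the injection and by the liposomes, which cannot be told apart here.

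*Edn2* encodes endothelin-2, a vasoactive peptide that photoreceptors are known to produce after injury or in inherited degeneration, and that acts on endothelin receptors of Müller glia. *Fgf2* encodes basic fibroblast growth factor, which is known to be produced in the injured retina by photoreceptors and Müller glia, to support photoreceptor survival and to act on blood vessels. Together with *Gfap* in Müller glia, both genes are known as markers of retinal stress. The card holds no photoreceptor marker and no endothelin or fibroblast growth factor receptor, so the cells in which the transcripts arose were not tested. In whole-retina RNA, fewer cells of a type and less RNA per cell cannot be told apart.

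Rat *Fgf2* lies on chromosome 2 of the GRCr8 assembly, from 122164454 to 122218796, and *Edn2* lies on chromosome 5, from 139036576 to 139042074, both on the plus strand. The 250 bases upstream of each annotated start are shown because the 2 genes rose together in PKD rats while these windows differ in composition. They are from RefSeq (GRCr8), 5′ to 3′ on the plus strand, and capitals mark matches to the motifs searched.
*Fgf2*, chr2:122164204-122164453: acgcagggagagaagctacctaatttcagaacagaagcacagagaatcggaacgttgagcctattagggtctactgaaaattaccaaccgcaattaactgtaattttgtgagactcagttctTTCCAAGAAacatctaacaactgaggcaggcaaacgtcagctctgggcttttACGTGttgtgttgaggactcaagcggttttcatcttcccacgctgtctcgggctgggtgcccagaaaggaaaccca
*Edn2*, chr5:139036326-139036575: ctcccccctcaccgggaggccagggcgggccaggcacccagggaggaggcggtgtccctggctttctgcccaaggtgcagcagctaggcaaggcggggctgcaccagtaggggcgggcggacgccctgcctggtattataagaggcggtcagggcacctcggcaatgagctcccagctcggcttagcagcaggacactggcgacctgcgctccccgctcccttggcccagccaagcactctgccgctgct
The *Fgf2* window had a GC content of 46.8% and 9 CpG dinucleotides, and the *Edn2* window had a GC content of 69.6% and 14 CpG dinucleotides. Both strands were searched for 3 motifs, the STAT motif TTCNNNGAA, the AP-1 motif TGANTCA and the hypoxia response core ACGTG. In the *Fgf2* window, the capitals TTCCAAGAA match the STAT motif, with the first base 128 bases upstream of the start, and ACGTG lies 76 bases upstream. The AP-1 motif was not found in the *Fgf2* window, and none of the 3 motifs was found in the *Edn2* window. Of 33469 rat promoter windows of the same length, 7.67% held the STAT motif, 6.34% the AP-1 motif and 16.6% the hypoxia core. These matches describe the sequence only, and binding at them was not measured.

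Both genes were detected in all 23 rats. The measured value is the quantification cycle (Cq), the PCR cycle at which the signal of a well crosses its threshold, so that a lower Cq stands for more transcript. The Cq of *Edn2* lay between 25.1 and 29.9 in SD rats, between 23.1 and 23.9 in PKD rats, between 23.2 and 24.2 in clodronate-treated PKD rats and between 23.0 and 23.4 in control liposome-treated PKD rats. The *Edn2* Cq of every PKD rat, injected or not, was therefore below that of every SD rat. For *Fgf2*, the Cq lay between 21.0 and 23.4 in SD rats, between 19.5 and 20.0 in PKD rats, between 19.8 and 21.5 in clodronate-treated rats and between 19.8 and 20.3 in control liposome-treated rats. Here 1 clodronate-treated rat, the fourth in the order of the table and called rat D below, had a Cq within the SD range before normalization. The mean Cq of the 4 reference genes 18S, *B2m*, *Mrpl19*, and *Ywhaz* was 16.3 ± 0.342 (standard deviation, n = 6) in SD, 16.5 ± 0.221 (n = 6) in PKD, 16.5 ± 0.548 (n = 5) in clodronate-treated and 16.4 ± 0.175 (n = 6) in control liposome-treated rats. Clodronate-treated rat D had the highest of all, 17.2. Expression is given below as the reference mean minus the Cq of the gene, against the average over SD rats, on the log2 scale, where 1 unit is a doubling if each cycle doubles the product.

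In SD rats, *Edn2* was at −1.09 in rat A, −2.21 in rat B, 2.73 in rat C, 0.70 in rat D, −0.13 in rat E and 0.0021 in rat F, where letters name the rats of a group in the order of the deposited table. *Fgf2* was at −0.50, −0.91, 1.67, 0.22, −0.44, and −0.046 in the same SD rats. Rat C was the highest SD rat for both genes and rat B the lowest. The standard deviation between SD rats was 1.68 for *Edn2* and 0.905 for *Fgf2*, against a median of 0.706 over the 40 genes with a Cq in every rat. Without rat C, the SD rats were at −0.55 ± 1.13 (n = 5) for *Edn2* and at −0.33 ± 0.437 for *Fgf2*.

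In PKD rats, *Edn2* ranged from 4.08 to 4.90, with a median of 4.66. *Fgf2* ranged from 2.96 to 3.27, with a median of 3.14. All 6 PKD rats were above all 6 SD rats for both genes, SD rat C included, and the gap for *Edn2* was 1.35. The spread between PKD rats was 0.293 for *Edn2* and 0.108 for *Fgf2*. For *Fgf2*, with normalization to the 4 reference genes, this was the smallest of the 40 genes in that group, and so was its spread of 0.0910 in control liposome-treated rats, where the median of the 40 genes was 0.463.

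The first comparison asks how the genes differ between the degenerating and the normal retina. *Edn2* was 24.3-fold higher in PKD than in SD rats, a log2 fold change of 4.60 (standard error 0.477, 95% interval 3.62 to 5.59, limma adjusted p = 8.97e-09). *Fgf2* was 8.75-fold higher, a log2 fold change of 3.13 (standard error 0.294, interval 2.52 to 3.74, limma adjusted p = 1.86e-09). Adjusted p-values are from limma over the 41 genes tested, and 15 of these, or 36.6%, passed the threshold of 0.05 in this comparison, 14 higher and 1 lower. With the mean of the specific genes as normalizer, the split was 7 higher and 16 lower, with *Edn2* (log2 fold change 3.78) and *Fgf2* (2.31) still among the higher. That mean includes *Edn2*, *Fgf2* and other genes that rose, and it shifts log2 fold changes in this comparison by −0.82. A gene that did not change would therefore read as lower. In size, the difference of *Edn2* ranked 1st and that of *Fgf2* ranked 4th of the 41 genes, with *Socs3* and *Serpina3n* between them. The groups did not overlap for 6 genes, or 14.6%, among them both *Edn2* and *Fgf2* (exact permutation p = 0.00216 each, the smallest that 6 against 6 rats can give). When any 1 rat was left out, the log2 fold change stayed between 4.16 and 5.15 for *Edn2* and between 2.95 and 3.46 for *Fgf2*, and without SD rat C it was highest for both. The intervals and limma p-values above use a spread shared by all 4 groups, although *Edn2* varied far more between SD rats (1.68) than between PKD rats (0.293). For *Edn2* the adjusted p was 1.75e-05 in the limma fit of the compared groups alone. By exact permutation tests of each gene it was 0.0148.

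**Figure D1:**
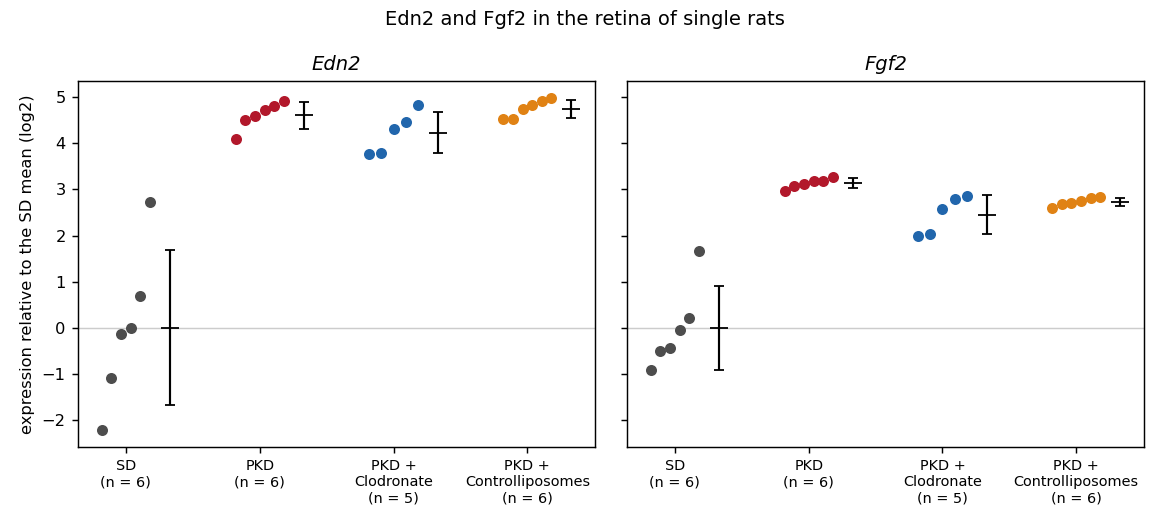
Expression of *Edn2* and *Fgf2* relative to the SD mean (log2, vertical axis) in each rat (points, sorted within a group), with the group mean and standard deviation in black. The PKD rats of all 3 treatments lie above all SD rats for both genes, and for *Fgf2* both injected groups lie below the uninjected PKD rats, whose lowest value is 2.96.

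In clodronate-treated PKD rats, *Edn2* was at 3.77 in rat A, 3.80 in rat B, 4.30 in rat C, 4.47 in rat D and 4.82 in rat E. *Fgf2* was at 1.99, 2.80, 2.86, 2.04, and 2.58 in the same animals. All 5 *Fgf2* values were below the lowest PKD rat, by a gap of 0.0933, whereas the *Edn2* values overlapped with those of PKD rats. Both genes nevertheless stayed above the SD rats, with 18.8-fold higher *Edn2* (log2 fold change 4.23, limma adjusted p = 1.16e-07) and 5.48-fold higher *Fgf2* (2.45, limma adjusted p = 2.68e-07). In that comparison 21 of 41 genes (51.2%) passed, 19 higher and 2 lower, against 9 higher and 13 lower with the mean of the specific genes as normalizer, which gave 3.35 for *Edn2* and 1.57 for *Fgf2*, and the groups did not overlap for 9 genes (22.0%), including both *Edn2* and *Fgf2*.

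The second comparison asks whether clodronate liposomes changed the genes in PKD rats. *Fgf2* was at 62.6% of its level in uninjected PKD rats, a log2 difference of −0.68 (95% interval −1.31 to −0.040). This difference did not pass (limma adjusted p = 0.391). None of the 41 genes (0.00%) passed in this comparison, and *Fgf2* was 1 of 5 with an unadjusted limma p under 0.05. *Fgf2* was the 1 gene of 41 (2.44%) for which the groups did not overlap (exact permutation p = 0.00216, unadjusted, the smallest that 5 against 6 rats can give). The overlap depended on the normalizer: without *B2m* among the reference genes the *Fgf2* values overlapped (−0.56, exact permutation p = 0.0303), and so did the Cq values without normalization (−0.66, exact permutation p = 0.00866). With the mean of the specific genes as normalizer, the *Fgf2* difference was −0.73 and passed (limma adjusted p = 0.0428). It did not pass where each gene was tested by an exact permutation test (adjusted p = 0.0887). There, 1 gene alone at the smallest possible p cannot pass over 41 genes, so this result decides nothing. The *Fgf2* difference also did not pass with the compared groups alone (limma adjusted p = 0.0795) or with sample weights (limma adjusted p = 0.0771). *Edn2* differed by −0.37 (interval −1.40 to 0.66, limma adjusted p = 0.702, exact permutation p = 0.136). Its interval holds both a fall of over 1 log2 unit and a rise. The width rests on the spread shared by all 4 groups, as for every interval between PKD groups given here. For *Edn2* that spread comes mainly from the SD rats (standard deviation 1.68, against 0.449 in clodronate-treated and 0.293 in PKD rats). With the compared groups alone *Edn2* did not pass either (limma adjusted p = 0.341). The direction of *Edn2* was not settled.

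In control liposome-treated PKD rats, *Edn2* ranged from 4.52 to 4.98, with a median of 4.77. *Fgf2* ranged from 2.59 to 2.83, with a median of 2.73. These rats had the highest mean of *Edn2*, but their *Fgf2* values were all below those of the uninjected PKD rats, by a gap of 0.123. Against SD rats, *Edn2* was 26.9-fold higher (log2 fold change 4.75, limma adjusted p = 6.15e-09) and *Fgf2* 6.62-fold higher (2.73, limma adjusted p = 1.48e-08). Here 26 of 41 genes (63.4%) passed, 23 higher and 3 lower, against 8 higher and 17 lower with the mean of the specific genes as normalizer, which gave 3.70 for *Edn2* and 1.68 for *Fgf2*, and the groups did not overlap for 12 genes (29.3%), again including both.

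The third comparison asks what the injection of liposomes without clodronate did. *Fgf2* was at 75.7% of its level in uninjected PKD rats, a log2 difference of −0.40 (95% interval −1.01 to 0.20) that did not pass in the fit of all 4 groups (limma adjusted p = 0.460). Only 1 gene of 41 (2.44%) passed, the complement gene *C3*, which was 1.16 higher on the log2 scale and is named here after its value was seen, and no gene passed without *B2m*, *Mrpl19* or *Ywhaz*, or in 10 of the 12 fits without 1 rat. The groups did not overlap for 3 genes (7.32%), *C3*, *Itgam*, and *Fgf2*, and *Fgf2* was the 1 that was lower (exact permutation p = 0.00216). *Fgf2* passed where the spread was taken from these groups alone (limma adjusted p = 0.0475), where each gene was tested by an exact permutation test (adjusted p = 0.0296) and with the mean of the specific genes as normalizer (−0.63, limma adjusted p = 0.0457). The exact permutation result rests on 3 genes sharing the smallest possible p, since 1 gene alone cannot pass over 41 genes. The groups overlapped without 18S (−0.32, exact permutation p = 0.0260), without *B2m* (−0.31, exact permutation p = 0.0108), and without a normalizer (−0.37, exact permutation p = 0.0108). For *Edn2* the difference was 0.14 (interval −0.84 to 1.13, limma adjusted p = 0.870), and it lay between −0.080 and 0.23 under the alternatives that kept all rats and at 0.040 without PKD rat A.

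The fourth comparison sets clodronate against control liposomes, with the injection shared. *Edn2* differed by −0.52 on the log2 scale (interval −1.55 to 0.51) and *Fgf2* by −0.27 (interval −0.91 to 0.36), and neither passed (limma adjusted p = 0.600 for both). The exact permutation test of the same difference gave an unadjusted p = 0.0281 for *Edn2* and p = 0.186 for *Fgf2*, and both genes overlapped between the groups. These p-values moved with the normalizer. For *Edn2* the exact permutation p was 0.0606 without 18S and 0.173 with the mean of the specific genes, and for *Fgf2* it was 0.0173 without 18S. The *Fgf2* difference ranged from −0.43 without 18S to −0.11 with the mean of the specific genes, and was −0.16 without clodronate-treated rat A and −0.17 without rat D. In this comparison 2 of 41 genes (4.88%) passed, the microglial genes *Aif1* and *Itgam*, both lower with clodronate, and these were also the 2 genes (4.88%) without overlap. No gene passed without *B2m*, without clodronate-treated rat A or C, or without control liposome-treated rat B or D, and only *Aif1* passed without *Mrpl19*. The comparisons of the injected groups with PKD rats share the PKD rats, and those with SD rats share the SD rats, so they are not independent of each other. By group mean the order for *Edn2* was control liposome-treated, PKD, clodronate-treated, and SD rats, and for *Fgf2* it was PKD, control liposome-treated, clodronate-treated, and SD rats. In both orders only the step to SD rats passed in the fit of all 4 groups.

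**Figure D2:**
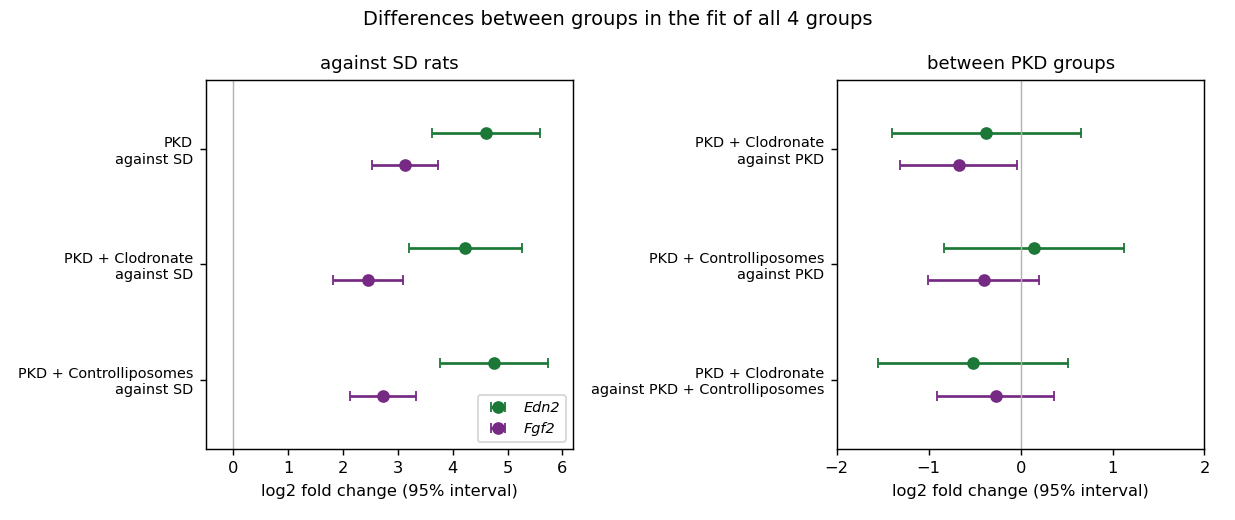
Log2 fold changes (points) with 95% intervals (bars) of *Edn2* and *Fgf2* from the limma fit of all 4 groups, against SD rats on the left and between the PKD groups on the right, where the horizontal scale is enlarged. Against SD rats every interval lies above 0, and between PKD groups only the interval of *Fgf2* in clodronate-treated against PKD rats, −1.31 to −0.040, excludes 0. All intervals use 1 spread shared by all groups, and the SD rats had the widest spread for both genes.

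Since both genes were read from the same card, their difference in Cq within a rat needs no reference gene. *Edn2* relative to *Fgf2* ranged from −1.30 to 1.07 in SD rats around their mean, and from 0.90 to 1.74 in PKD rats. It ranged from 1.00 to 2.43 in clodronate-treated and from 1.69 to 2.18 in control liposome-treated PKD rats. The means were 1.47 ± 0.312 (n = 6) in PKD, 1.78 ± 0.583 (n = 5) in clodronate-treated and 2.02 ± 0.214 (n = 6) in control liposome-treated rats. Each of the 6 pairs of groups was compared by an exact permutation test, with adjustment over the 6 comparisons. *Edn2* had risen 2.78-fold more than *Fgf2* in PKD against SD rats (exact permutation p = 0.00433, adjusted p = 0.00974). In control liposome-treated against uninjected PKD rats, *Edn2* relative to *Fgf2* was a further 1.46-fold higher, a log2 difference of 0.55 (exact permutation p = 0.00649, adjusted p = 0.00974), although the groups overlapped. This difference passed when any 1 of the 12 rats was left out, with values of 0.43 to 0.61 and exact permutation p-values, adjusted over the 6 comparisons, between 0.00866 and 0.0227. The clodronate-treated rats differed from PKD rats by 0.30 (exact permutation p = 0.286, adjusted p = 0.343) and from control liposome-treated rats by −0.25 (exact permutation p = 0.377, the largest of the 6), and neither passed. When any 1 rat was left out, the first of these differences ranged from 0.14 without clodronate-treated rat D to 0.50 without clodronate-treated rat B, and the second from −0.41 to −0.050 without the same animals. Against SD rats, *Edn2* relative to *Fgf2* was 3.43-fold higher in clodronate-treated rats (exact permutation p = 0.00649, adjusted p = 0.00974), with overlap. In control liposome-treated rats it was 4.06-fold higher than in SD rats (exact permutation p = 0.00216, adjusted p = 0.00974), without overlap. The 2 genes did not change by the same factor in any PKD group against SD rats, or in control liposome-treated against PKD rats.

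**Figure D3:**
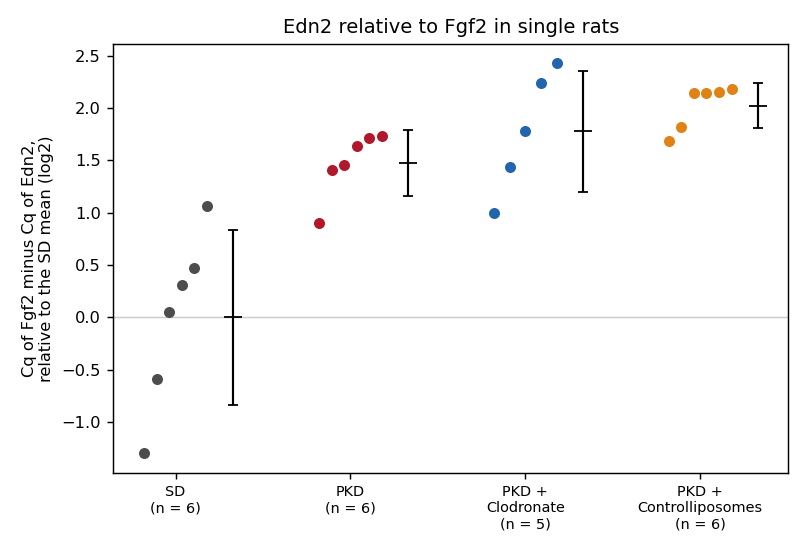
Cq of *Fgf2* minus Cq of *Edn2* in each rat, relative to the SD mean (log2, vertical axis), by group, with the group mean and standard deviation in black. All but 1 of the control liposome-treated rats lie above the highest uninjected PKD rat, which is at 1.74, and no PKD rat of any treatment lies below 0.90.

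Within the SD group, rats with more *Edn2* had more *Fgf2*. Over the 6 SD rats Pearson's r was 0.965 (exact permutation p = 0.00139, adjusted over 4 relations p = 0.00556) and Spearman's rho was 1 (exact permutation p = 0.00278, adjusted p = 0.0111). Without SD rat C alone r was 0.943, which did not pass after adjustment (exact permutation test, adjusted p = 0.1). Without SD rats C and B, the 2 farthest from the median, r was 0.873 over 4 rats (exact permutation p = 0.0833, where 4 rats cannot give less than 0.0417). Both values of a rat share the reference mean, and the relation no longer passed without normalization (r = 0.920, rho = 0.6) or with the mean of the specific genes as normalizer (r = 0.88). The relation did not pass within PKD rats (r = 0.0078, exact permutation p = 0.989, rho = 0.2) or within control liposome-treated rats (r = −8.3e-05, exact permutation p = 0.999, rho = −0.029), whose ranges are narrow. These values moved with the normalizer: without 18S r was 0.57 in PKD rats and 0.72 in control liposome-treated rats, where it was 0.87 with the mean of the specific genes. Without the 2 control liposome-treated rats farthest from the median, r was 0.997 over 4 rats (exact permutation p = 0.0417, the smallest that 4 rats can give), so that 4 rats leave little room to pass after adjustment. Over all 17 PKD rats, centred on the means of their groups, r was 0.068 (permutation p = 0.857) and rho 0.105, and without the 2 rats farthest from the median of *Edn2*, 1 uninjected and 1 clodronate-treated, r was −0.25. Without 18S it was 0.54, which did not pass (permutation test, adjusted p = 0.0978). No correlation was computed within the 5 clodronate-treated rats alone, where rat E, highest for *Edn2*, was in the middle for *Fgf2*, and rat C, highest for *Fgf2*, was in the middle for *Edn2*.

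**Figure D4:**
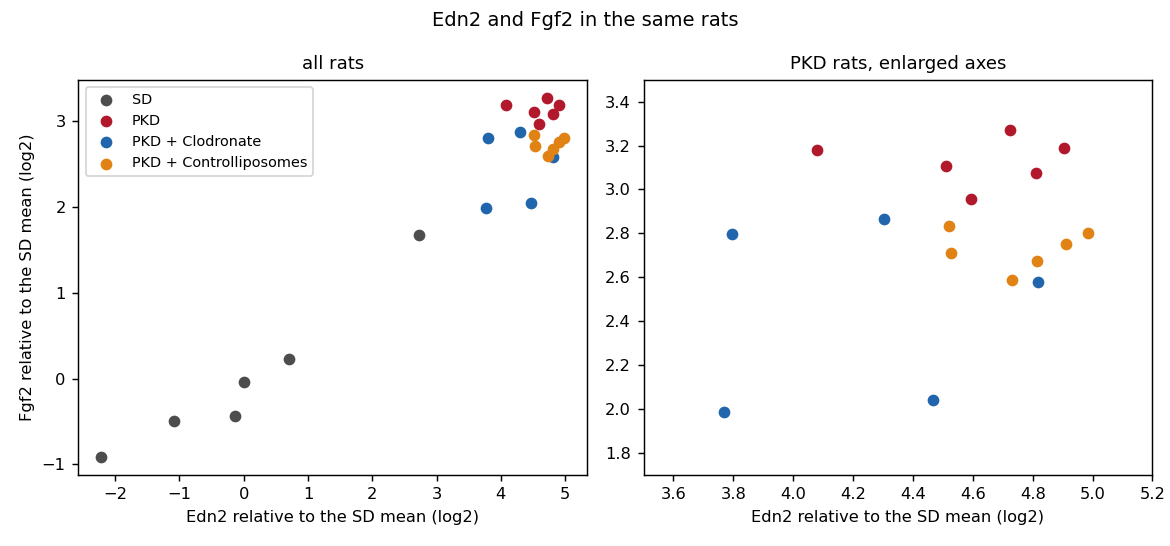
*Fgf2* (vertical axis) against *Edn2* (horizontal axis), both relative to the SD mean (log2), 1 point per rat, for all rats on the left and for the PKD rats with enlarged axes on the right. The SD rats rise along a line with rat C at 2.73 and 1.67, and the PKD rats of each treatment form a cloud.

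Among the 41 genes, the pattern most like that of *Edn2* over all 23 rats was that of *Fgf2* (r = 0.969), followed by *Socs3* (0.963) and *Gfap* (0.954). For *Fgf2* the order was *Edn2* (0.969), *Gfap* (0.951), and *Socs3* (0.944). These correlations mostly restate that the genes were higher in all PKD groups, and all values share the reference mean. After centring on the group means, *Edn2* was closest to *Fgf2* (0.850), *Socs3* (0.831), and *Timp1* (0.743), and *Fgf2* to *Gfap* (0.854), *Edn2* (0.850), and *Socs3* (0.821). Leaving out SD rat C lowered these values: over 22 rats *Edn2* was closest to *Fgf2* (0.606), *Socs3* (0.602), and *Trem2* (0.566), and *Fgf2* to *Itgam* (0.668), *Tnfrsf12a* (0.623), and *Edn2* (0.606). Over the 17 PKD rats alone, centred in the same way, r of *Edn2* and *Fgf2* was 0.068, so that the likeness within groups lay mainly in the SD rats, whose spread was widest.

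Of the 3 lists of other genes, the glial stress response genes had the highest median difference between PKD and SD rats. *Gfap*, an intermediate filament of astrocytes and reactive Müller glia, was at 0 ± 0.928 (n = 6) in SD, 2.62 ± 0.131 (n = 6) in PKD, 2.83 ± 0.306 (n = 5) in clodronate-treated and 2.95 ± 0.274 (n = 6) in control liposome-treated rats. *Socs3*, an inhibitor of cytokine signalling that is induced through STAT3, was at 0 ± 1.10, 4.22 ± 0.257, 4.75 ± 0.395, and 4.44 ± 0.129 in the same groups. Of the 5 genes of this list, 4 rose in PKD against SD rats, *Gfap*, *Socs3*, the acute phase gene *Serpina3n* and the iron-carrier binding *Lcn2*, and the median log2 fold change of the list was 2.62, against 0.44 over all 41 genes, of which 36.6% passed. All 5, with the protease inhibitor *Timp1*, were higher than in SD rats in both injected groups, where 51.2% and 63.4% of the 41 genes passed, except that *Timp1* did not pass there with the mean of the specific genes as normalizer, nor in clodronate-treated rats without 18S. None of the 5 passed between PKD groups. In mean, *Gfap* was higher in both injected groups than in PKD rats, by 0.21 and 0.33, where *Fgf2* was lower, but neither *Gfap* difference passed (limma adjusted p = 0.736 and 0.569).

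Of the 7 other secreted growth and neurotrophic factors on the card, 1 rose and 1 fell in PKD rats, a share near the 36.6% of all 41 genes that passed. *Cntf*, a neurotrophic cytokine, rose in PKD against SD rats, by 0.71 (limma adjusted p = 0.0129). *Bdnf*, brain-derived neurotrophic factor, fell by 0.81 on the log2 scale (limma adjusted p = 0.0121), but did not pass without *B2m* among the reference genes. *Igf1*, *Pgf*, *Vegfa*, *Tgfb1*, and *Tgfb2* did not pass, and the median of the list was 0.063. With the mean of the specific genes as normalizer, which lowers the median log2 fold change of all genes by 0.82 in this comparison, *Cntf* no longer passed and 5 of the 7 were lower, whereas *Edn2* (3.78) and *Fgf2* (2.31) stayed higher. *Bdnf* was also lower than in SD rats in clodronate-treated (−1.25, limma adjusted p = 0.000335) and in control liposome-treated rats (−0.71, limma adjusted p = 0.0197), where it did not pass without 18S or without *B2m*. *Cntf* was higher in clodronate-treated (0.71, limma adjusted p = 0.0140) and control liposome-treated (0.78, limma adjusted p = 0.00436) than in SD rats. It passed in neither group with the mean of the specific genes as normalizer. *Pgf*, placental growth factor, was higher than in SD rats in both injected groups, but passed in neither with the mean of the specific genes as normalizer. In control liposome-treated rats it also did not pass without *Mrpl19* or without *Ywhaz*. *Vegfa*, the vascular endothelial growth factor, was lower in control liposome-treated than in SD rats (−0.66, limma adjusted p = 0.00921), but did not pass without *B2m*. None of the 7 passed between PKD groups, except that *Igf1* was lower in control liposome-treated than in PKD rats with the mean of the specific genes as normalizer.

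With normalization to the 4 reference genes, the microglia and macrophage markers were in mean highest in control liposome-treated rats. The level over the 6 markers *Aif1*, *Itgam*, *Cd74*, *Tyrobp*, *Trem2*, and *Lgals3*, all with a Cq in every rat, was at 0 ± 0.575 (n = 6) in SD, 0.38 ± 0.208 (n = 6) in PKD, 0.50 ± 0.314 (n = 5) in clodronate-treated and 0.93 ± 0.234 (n = 6) in control liposome-treated rats, and *Lgals3* had the lowest Cq. With the mean of the specific genes as normalizer, this level was below that of SD rats (0 ± 0.136) in all 3 PKD groups, at −0.44 ± 0.0887 in uninjected rats, −0.38 ± 0.222 after clodronate and −0.12 ± 0.105 after control liposomes. That normalizer includes the 6 markers and the genes that rose most, and it shifted PKD against SD rats by −0.82. These lower values therefore do not show fewer marker transcripts than in SD rats. Of the 6, *Cd74* and *Lgals3* had their highest mean in clodronate-treated rats, *Cd74* at 0.43 against 0.26 and *Lgals3* at 1.71 against 1.36 in control liposome-treated rats. Of these markers, *Itgam*, *Tyrobp*, and *Lgals3* rose in PKD against SD rats, 3 of 6 beside 36.6% of all 41 genes, whereas with the mean of the specific genes as normalizer none rose and *Aif1*, *Cd74*, and *Trem2* were lower. *Itgam*, an integrin subunit of microglia and other myeloid cells, was 0.67 higher in control liposome-treated than in PKD rats (limma adjusted p = 0.0844). *Itgam* passed there without 18S and with the mean of the specific genes as normalizer. In the same comparison *Fgf2* was lower in mean, but did not pass in the fit of all 4 groups with the 4 reference genes (limma adjusted p = 0.460). In clodronate-treated against control liposome-treated rats, *Aif1* differed by −0.99 (limma adjusted p = 0.0194) and *Itgam* by −0.81 (limma adjusted p = 0.0278), also with the mean of the specific genes as normalizer, but not in all of the alternatives given with that comparison. The part of these cells in the values of *Edn2* and *Fgf2* was not tested.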

How the data were processed

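Expression was measured by TaqMan microfluidic cards, with 48 wells per rat, of which 44 held specific genes and 4 held reference genes. The authors deposited the Cq of every well, another unit than counts or intensities, after 14 cycles of pre-amplification and before any normalization. A second deposited table holds the authors' own fold changes between group means and was not used.

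Columns carry animal numbers, and their groups were taken from the sample list of the study's supplement. Columns of 23 rats were used. A further 11 columns, for which no group was found, were not used, so PBS-injected PKD rats and clodronate-treated SD rats were not analysed here. The wells were matched to genes through Cq values listed by symbol, for all 48 wells within 0.0001 cycles.

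The Cq of a gene was subtracted from the average Cq of the reference genes (18S, *Ywhaz*, *Mrpl19*, and *B2m*). Genes with at least 3 Cq values in each group were tested, which were 41 genes. The lmFit and eBayes functions of limma 3.58.1 (R 4.3.3, statmod 1.5.0) fitted all 4 groups, which share 1 estimate of the spread, and tests were two-sided. The Benjamini-Hochberg procedure was applied over the 41 genes of each comparison at a threshold of 0.05. Exact permutation tests were two-sided and ran over rats in Python 3.11.15, and the permutation test over 17 PKD rats used 100000 resamples. The scripts were tested on simulated data. Plots were drawn with matplotlib 3.10.9. How many template copies each Cq stands for is not known, and precision comes from the 5 or 6 rats of a group.

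The genes named are *Edn2*, *Fgf2*, the reference genes, the genes of 3 lists and, for each of *Edn2* and *Fgf2*, the 3 genes with the highest Pearson's r. *C3* was named in addition. These genes, the lists and the tests were chosen with earlier results of these data known. The alternatives were the omission of each reference gene, the average of all completely measured specific genes as the normalizer, a Cq of 40 for empty wells, a test of completely measured genes alone, a fit of the compared groups alone, a robust prior, sample weights, exact permutation tests and the omission of each rat. The list of similar genes without SD rat C was added after seeing the data. Upstream windows are from the RefSeq promoter table (GRCr8).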

Additional observations from a re-analysis of the deposited data

Results flagged for a closer look

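No value of *Edn2* or *Fgf2* lay far enough from its group to be listed here. The nearest was *Fgf2* in SD rat C, whose gap to the next rat was 0.560 of the range of the group, below the critical share for 6 rats. Among the genes named beside them, 4 values stood apart from the rest of their group by this measure, of 92 sets searched, where chance gives 4.6. *Gfap* was at 1.80 in SD rat C, with the other SD rats between −0.84 and −0.055. *Serpina3n* was at 2.75 in the clodronate-treated rat A, with the others between 4.05 and 4.50, and this rat also had the lowest *Edn2* and *Fgf2* of its group. *Tgfb1* was at 1.24 in PKD rat C, with the others between −0.20 and 0.090. *Tgfb2* was at 2.10 in the control liposome-treated rat C, with the others between −0.22 and 0.56.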

How the results depend on the processing

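Against SD rats, *Edn2* and *Fgf2* passed the threshold in all 3 PKD groups under all 11 alternatives that kept all rats and in every fit without 1 rat. Their lowest log2 fold changes, 3.35 for *Edn2* and 1.57 for *Fgf2*, came in clodronate-treated rats with the mean of the specific genes as normalizer. That normalizer gave −0.080 for *Edn2* in control liposome-treated against PKD rats, the reverse direction, and let *Fgf2* pass in clodronate-treated (−0.73) and control liposome-treated (−0.63) against PKD rats. *Fgf2* also passed in the latter at −0.40 with the compared groups alone or by exact permutation tests. The number of genes that passed in PKD against SD rats rose to 23 with the mean of the specific genes, 7 higher and 16 lower. In clodronate-treated against PKD rats it was 2 with that normalizer and 1 with empty wells set to 40. In control liposome-treated against PKD rats it was 3 without 18S, 0 without *B2m*, *Mrpl19* or *Ywhaz*, 5 with the mean of the specific genes, 3 with empty wells set to 40, 2 with sample weights, 5 with the compared groups alone and 4 by exact permutation tests, and 0 to 1 without 1 rat, with 0 in 10 of these 12 fits. In clodronate-treated against control liposome-treated rats it was 0 without *B2m*, 1 without *Mrpl19* and 0 to 3 without 1 rat, with 0 without clodronate-treated rat A or C or without control liposome-treated rat B or D. The cause of these changes was not tested.

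The correlation of *Edn2* and *Fgf2* within SD rats no longer passed with the mean of the specific genes (r = 0.88) or without a normalizer (0.92). It was 0.873 without the 2 farthest rats, where 4 rats cannot give a p under 0.0417, and ran from 0.943 to 0.985 without 1 rat. Within PKD rats r was −0.11 without *Ywhaz*, −0.071 with the mean of the specific genes, 0.57 without 18S, 0.23 without a normalizer and 0.298 without the 2 farthest rats, and ran from −0.16 to 0.43 without 1 rat. Within control liposome-treated rats r was 0.72 without 18S, 0.44 without *B2m*, −0.16 without *Mrpl19* and 0.25 without *Ywhaz*. It was 0.87 with the mean of the specific genes, 0.24 without a normalizer and 0.997 without the 2 farthest rats. Without 1 rat it ran from −0.34 to 0.50. Over the 17 PKD rats r was −0.25 without the 2 farthest rats, 0.54 without 18S and 0.372 without a normalizer, and ran from −0.25 to 0.30 without 1 rat. None of these correlations in PKD groups passed after adjustment, for which those over 4 rats leave little room. No paired analysis was possible because the columns of the table carry animal numbers and not the replicate numbers of the labels.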
